A study of Mus musculus with 4 samples.

Results

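The kinesin family genes of the mouse were followed through a map of open chromatin in erythroblasts with and without Chd7. Members were the protein-coding genes of the GRCm38.p6 RefSeq table whose symbols begin with Kif and a digit, 38 of 21887 genes. They were divided by known role into 13 mitotic kinesins, 15 transport kinesins and 10 others. A member's regions were those lying inside the gene or within 1 kb of either end, and there were 41 of them among 15328 regions in all. Mitotic kinesins held 18 regions, transport kinesins 17 and the others 6.

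The cells were G1ER, a mouse erythroblast line that descends from Gata1-null cells and carries GATA1 fused to an estrogen receptor domain, so both genotypes share the Gata1 loss and the fusion. Chd7-/- cells (2 libraries, replicate 1 labelled 1 h and replicate 2 labelled 2 h) were set against wild-type cells (2 libraries with the same labelled times), each library made from 50000 cells. The labels name no treatment; cells of both genotypes grew with erythropoietin at 2 U/mL and with stem cell factor. CHD7 is a chromodomain helicase that slides nucleosomes. The assay was ATAC-seq: a transposase cuts and tags DNA where chromatin is open, and stacks of tagged fragments are called as peaks. Nothing in the labels separates cultures from repeat preparations, so p-values measure only the spread between these libraries, which may be technical. Replicate number and labelled time coincide. Both Chd7-/- libraries carry 1 code in their descriptions, so genotype cannot be told apart from clone.

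The authors deposited 1 peak list per library, with 12443 and 11376 nuclear peaks in Chd7-/- replicates 1 and 2, and 11084 and 12043 in wild-type replicates 1 and 2. The files give no read totals. As a guide to relative depth, the lowest background behind a library's peaks was 1.04 and 1.01 fragments per base in the Chd7-/- libraries and 0.787 and 1.08 in the wild-type libraries. Of 10 erythroid marker genes, 8 had a region in at least 1 library, and Slc4a1 and Gfi1b had none. At 5 of the 10 a region lay within 1 kb of a gene end, against 39.0% of all protein-coding genes. Ends called in all 4 libraries were found at 3 of the 10, against 32.0% of all genes. Of 5 T cell, 5 B cell and 5 myeloid genes, 0 had a region, and of 5 neuronal genes only Syt1 had 1. Each library pools many cells, so fewer open cells and less openness per cell cannot be told apart.

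Kinesins are motor proteins that burn ATP to walk along microtubules. Mitotic kinesins slide, depolymerise or cross-link microtubules in the spindle and at the midbody, and their genes are switched on shortly before division. Transport kinesins carry vesicles, organelles and mRNA, many of them in neurons and cilia. Promoters of genes used late in the cell cycle often carry a CHR element (cell cycle genes homology region), bound by the DREAM and MuvB complexes, with a CCAAT box, bound by NF-Y, a short way upstream.

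The sequences below show where these elements lay in the mitotic kinesin promoters. RefSeq promoter entries (GRCm38.p6) were matched for 31 of the 38 genes, 12 of them mitotic, 11 transport and 8 other. Each line gives 100 bases before the gene start and 30 from it, 5′ to 3′ on the gene's own strand. The first 7 are the mitotic promoters with a CHR match in this window, and capitals mark CHR letters (TTTGAA or TTCGAA, on either strand) and CCAAT boxes (CCAAT on either strand). They lie at chr19:37376282-37376411 (plus strand) for Kif11, chr11:102925095-102925224 (minus) for Kif18b, chr7:127042391-127042520 (minus) for Kif22, chr9:61946770-61946899 (minus) for Kif23, chrX:100625965-100626094 (plus) for Kif4, chr9:122950981-122951110 (plus) for Kif15 and chr19:34922258-34922387 (plus) for Kif20b. Of these 7 genes, 6 had an accessible region over the window, and Kif22 had none.
Kif11: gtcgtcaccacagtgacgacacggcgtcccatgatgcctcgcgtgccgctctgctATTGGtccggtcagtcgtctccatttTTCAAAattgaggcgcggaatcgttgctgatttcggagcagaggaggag
Kif18b: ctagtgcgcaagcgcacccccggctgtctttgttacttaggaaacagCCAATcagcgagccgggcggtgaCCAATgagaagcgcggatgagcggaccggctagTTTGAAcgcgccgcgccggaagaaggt
Kif22: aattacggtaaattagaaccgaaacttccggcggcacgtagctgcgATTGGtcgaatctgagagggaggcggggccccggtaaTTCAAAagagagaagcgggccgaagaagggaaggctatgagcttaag
Kif23: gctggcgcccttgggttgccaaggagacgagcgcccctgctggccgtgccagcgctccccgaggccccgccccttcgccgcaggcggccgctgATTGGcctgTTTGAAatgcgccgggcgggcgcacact
Kif4: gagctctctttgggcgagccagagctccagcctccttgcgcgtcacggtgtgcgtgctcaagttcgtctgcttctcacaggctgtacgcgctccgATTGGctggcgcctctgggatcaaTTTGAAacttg
Kif15: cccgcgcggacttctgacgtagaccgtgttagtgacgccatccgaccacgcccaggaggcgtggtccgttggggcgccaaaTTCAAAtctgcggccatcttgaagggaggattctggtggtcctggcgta
Kif20b: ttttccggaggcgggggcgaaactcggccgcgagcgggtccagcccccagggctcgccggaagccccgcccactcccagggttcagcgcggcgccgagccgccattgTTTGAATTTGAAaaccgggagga

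A pair of transport promoters is shown for contrast, with GC boxes (GGGCGG on either strand) in capitals. They are Kif1c at chr11:70700448-70700577 (plus strand) and Kif16b at chr2:142901435-142901564 (minus), both accessible in all 4 libraries and without a CHR or CCAAT match in this window.
Kif1c: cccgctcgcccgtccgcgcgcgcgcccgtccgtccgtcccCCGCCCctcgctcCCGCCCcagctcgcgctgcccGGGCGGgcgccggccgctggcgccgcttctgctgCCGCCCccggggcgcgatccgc
Kif16b: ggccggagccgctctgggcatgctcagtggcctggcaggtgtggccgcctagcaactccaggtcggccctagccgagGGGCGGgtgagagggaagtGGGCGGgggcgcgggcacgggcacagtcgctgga

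Within these 130 bases, CHR letters were found in 7 of 12 mitotic kinesin promoters (58.3%), in 1 of 11 transport kinesin promoters (9.09%, Kif1a) and in 3 of 8 of the others (37.5%; Kif24, Kif26b and Kif27), against 7.91% of the promoters of 17492 protein-coding genes. The CCAAT box was in 7 of 12 mitotic promoters, 3 of 11 transport promoters, 3 of 8 of the others and 26.4% of all promoters. CHR and CCAAT box occurred together in 5 mitotic promoters (Kif11, Kif18b, Kif22, Kif23 and Kif4), in 0 transport promoters and in 1.95% of all promoters. The pair was also in 2 of 8 of the others (25%, Kif24 and Kif26b), so it was not particular to mitotic kinesins. GC boxes were in 4 of 12 mitotic and 7 of 11 transport promoters, against 40.1% of all. Letters for GATA factors (AGATAA or TGATAA, either strand) were in 0 of 31 kinesin windows and 7.20% of all, and letters for RUNX factors (TGTGGT or TGCGGT, either strand) were in 1 of 31, Kif11, and 11.3% of all. The window was set after the matches had been seen; in the full 300 bases of each entry, CHR letters were in 9 of 12 mitotic promoters, 1 of 11 transport promoters and 20.2% of all. There the CCAAT box was in 7 of 12 mitotic promoters, 3 of 11 transport promoters and 42.3% of all, and CHR and CCAAT box together in 6 mitotic promoters, 0 transport promoters and 8.22% of all. Of the 8 others, 3 held CHR letters in the 300 bases, 4 the CCAAT box and 3 both. GC boxes in the 300 bases were in 7 of 12 mitotic and 9 of 11 transport promoters, against 49.2% of all, so the mitotic share lay below that of all genes in the shorter window and above it in the longer. GATA letters were in 1 of 31 kinesin entries, Kif2c, and 18.2% of all. RUNX letters were in 3 of 31 and 24.4% of all. Those 3 were all mitotic (Kif11, Kif18b and Kif2c), so the mitotic share was 25%, near that of all genes. No transport or other kinesin entry held them. These are matches of letters and show no binding. The median share of G and C bases in the 300-base entries was 60.7% for mitotic, 69.3% for transport and 57.3% for other kinesins. Over all entries it was 56.3%. How far base composition bears on the motif shares was not tested.

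Mitotic kinesins had the highest share of genes with an open end. A region lay within 1 kb of a gene end in 12 of 13 mitotic kinesins (92.3%, 95% exact interval 64.0 to 99.8), in 8 of 15 transport kinesins (53.3%, 26.6 to 78.7) and in 3 of 10 others (30%, 6.67 to 65.2). Over all protein-coding genes the share was 39.0%. For ends called in all 4 libraries the counts were 9 of 13, 7 of 15 and 3 of 10, against 32.0% of all genes. Over the RefSeq promoter entries, from 250 bases before the start to 50 after it, a region lay over 8 of 12 mitotic, 5 of 11 transport and 3 of 8 other promoters, 16 of 31 in all (51.6%), against 39.7% of all promoters. No test was made of these shares. By library, 11 and 11 mitotic kinesins had an accessible end in the Chd7-/- libraries and 12 and 11 in the wild-type libraries, with 35.9% and 35.0% of all genes in Chd7-/- and 35.4% and 36.5% in wild type.

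**Figure D1:**
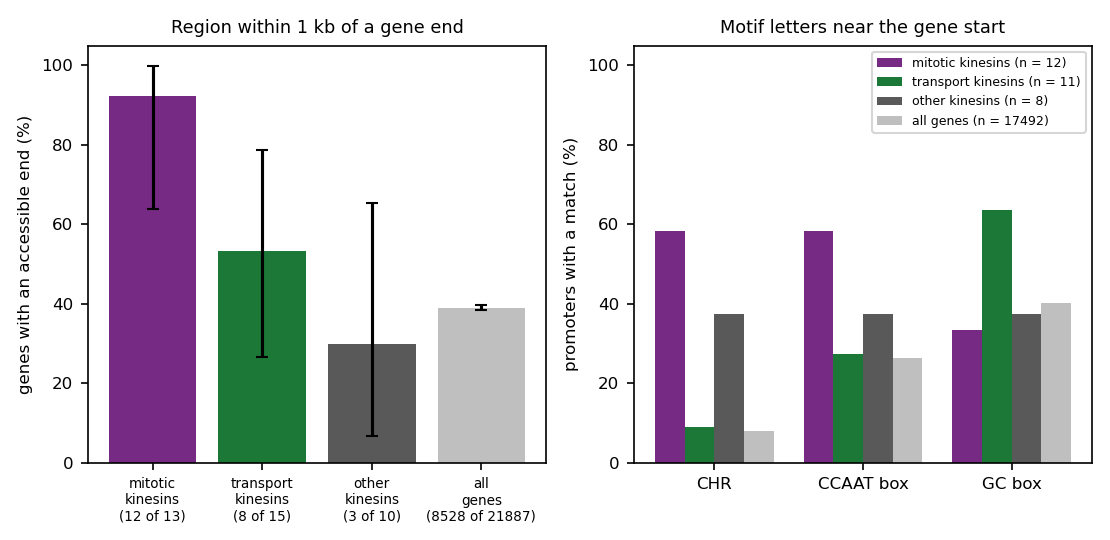
Left, percentage of genes with an accessible region within 1 kb of a gene end in any library, for each kinesin class and for all protein-coding genes; bars are shares and lines are 95% exact binomial intervals, which cover counting of genes only. Right, percentage of promoters with the motif letters in the 130 bases around the gene start; mitotic kinesins lead for CHR (58.3% against 7.91% of all genes) and transport kinesins for the GC box (63.6% against 40.1%).

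Regions were absent from 10 of the 38 genes. The 1 mitotic gene among them was Kif2b, of the depolymerase subfamily. Transport kinesins without a region were Kif1a and Kif3c, motors best known from neurons, Kif21a, and Kif3b, a subunit of the heterotrimeric kinesin that serves cilia. Among the others Kif6, Kif12, Kif19a, Kif26a and Kif27 had none. An open end was not always a gene's own start, and the table gives no strand for Kif20a, Kif5a, Kif5b, Kif13b and Kif21b, so which end was open is not given for them. Kif22, a chromosome-arm motor gene, counted as open through a region just past its 3′ end, on chromosome 7 from 127026175 to 127027689, which lies at an end of Maz, and it had no peak at its own promoter in any library. Kif14 and Kif2c had their regions over the outermost RefSeq end and outside the promoter entry, 1088 and 3556 bases from the start given there. Kif3a, a partner subunit of Kif3b, showed the reverse: its region lay over the promoter entry, 1581 bases inside the outermost end.

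Of the 41 kinesin regions, 24 (58.5%) were called in all 4 libraries, against 56.8% of all regions. Of the 23 kinesin regions at gene ends, 19 (82.6%) were called in all 4 libraries, against 76.8% of 7752 regions at gene ends in the whole set. The median strength of those 19, taken as the percentile of fold enrichment in a library's own list at its lowest over the 4 libraries, was 50.1, against 55.7 over all gene-end regions called in all 4 libraries. The remaining 18 regions lay inside genes, and 5 of them (27.8%) were called in all 4 libraries, against 36.4% of all regions away from gene ends. All 5 kinesin regions called in a single library were of this inner kind, inside Kif14, Kif23, Kif5c and Kif16b (2 regions). They made up 27.8% of the inner kinesin regions, against 34.4% of all regions away from gene ends. At gene ends the share was 0 for kinesins and 9.22% over all regions. Median width was 629 bases at kinesin ends and 349 bases inside kinesin genes, against 608.5 and 352 bases over all regions of each kind.

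The 3 kinesin regions with the highest strength percentiles were at Kif24, Kif14 and Kif18a. Kif24, a regulator of centriole and cilium assembly, had 50 and 62 fragments at the summit in Chd7-/- replicates 1 and 2 and 54 and 60 in wild-type replicates 1 and 2 (chromosome 4, 41464583 to 41465322), with percentiles from 93.2 to 99.0. Kif14, a cytokinesis motor that acts with citron kinase, had 48 and 51 in Chd7-/- and 49 and 64 in wild type (chromosome 1, 136466060 to 136466760). Kif18a, which damps chromosome oscillation at the metaphase plate, had 54 and 40 in Chd7-/- and 38 and 45 in wild type (chromosome 2, 109280462 to 109281085). In each of these 3 genes the order of the 4 libraries by raw pileup mixed the genotypes. Ends of other genes lay within 1 kb of the Kif24 region (Nudt2) and the Kif18a region (Mettl15), so the openness cannot be assigned to the kinesin alone; the same held at Kif15 (1110059G10Rik), Kif20a (Brd8), Kif4 (Pdzd11), Kif22 (Maz), Kif9 (Klhl18), Kif1c (Inca1) and Kif5a (Dctn2, itself a subunit gene of dynactin).

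**Figure D2:**
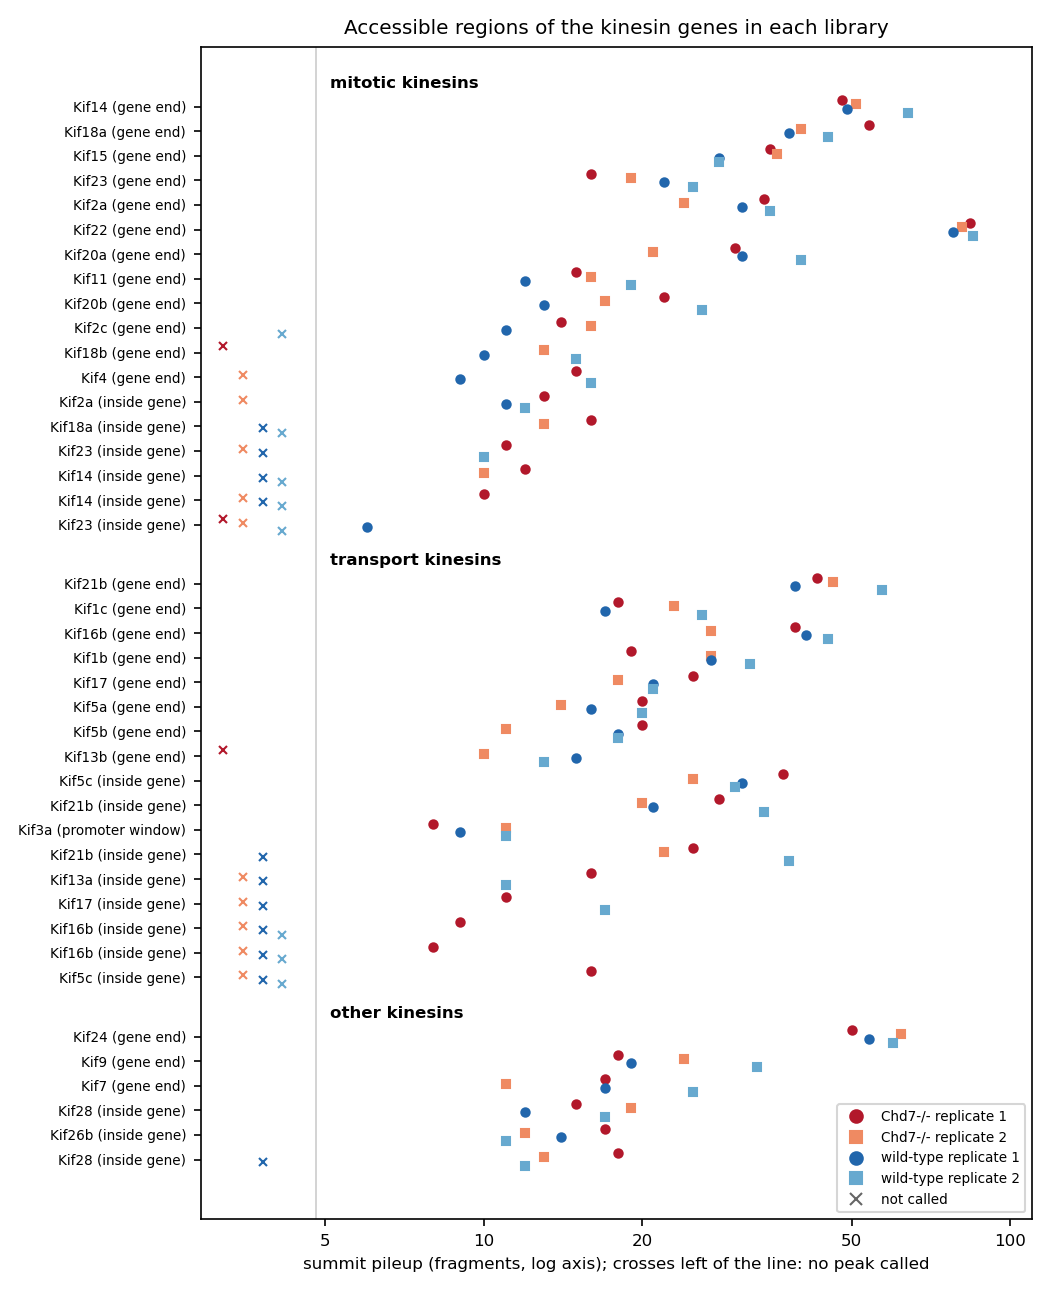
Summit pileup in fragments (log axis) of each of the 41 kinesin regions in the 2 Chd7-/- and 2 wild-type libraries, 1 row per region by class; crosses left of the line mark libraries with no called peak. Rows at gene ends are mostly called in all 4 libraries (19 of 23), and gaps lie mainly inside genes.

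Between genotypes, no kinesin region passed the test for a difference in openness. The 24 kinesin regions called in all 4 libraries were compared by summit pileup, the number of fragments stacked at the summit, on the scale log2(pileup + 1). Each library was centred on its median and limma was fitted over 8704 regions. After Benjamini-Hochberg adjustment 0 of 24 passed 0.05 in either direction, as did 0% of all regions, and at an unadjusted p below 0.05 there were 0 of 24 and 758 of 8704 (8.71%). The median difference of Chd7-/- minus wild type was 0.00 over the 24 regions, on the log2 scale, against 0.02 over all regions. It was 0.10 for 9 mitotic, −0.01 for 10 transport and 0.05 for 5 other regions. With 2 libraries a genotype, standard errors were 0.18 to 0.26, and a region was compared only where every library had a peak.

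**Figure D3:**
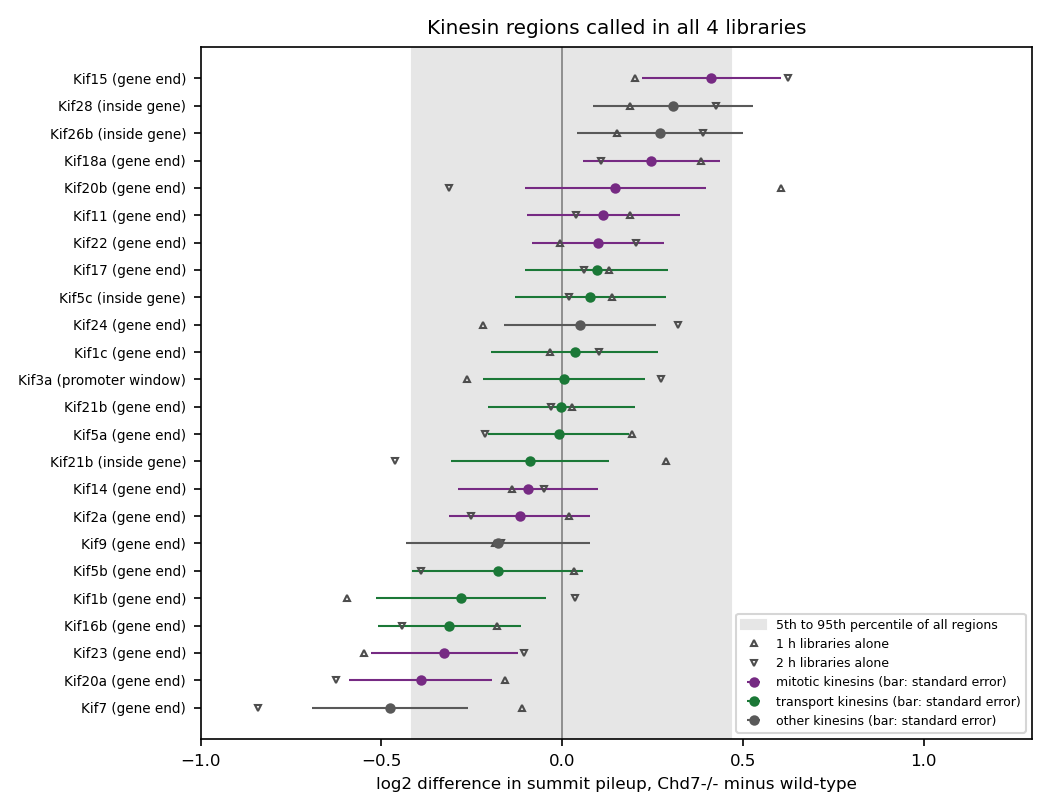
Difference in log2 summit pileup, Chd7-/- minus wild-type, for the 24 kinesin regions called in all 4 libraries, with limma's standard errors; triangles give the 1 h and the 2 h libraries alone. Values run from −0.48 at Kif7 to 0.41 at Kif15; only Kif7 lies outside the grey band, the 5th to 95th percentile of all regions, and 0 passed after adjustment.

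Among mitotic kinesins, Kif15 and Kif18a had the highest differences with all 4 libraries and Kif20a and Kif23 the lowest. The order changed with the libraries used. Without wild-type replicate 2, Kif20b (0.51) and Kif11 (0.32) lay above Kif15 (0.31) and Kif18a (0.26). Without Chd7-/- replicate 1, Kif11 (0.24) and Kif22 (0.16) lay above Kif18a (0.12), and Kif2a (−0.28) lay below Kif23 (−0.12). Without Chd7-/- replicate 2, Kif18a (0.37) lay above Kif15 (0.31). At Kif15, a motor that backs up Kif11 in keeping the spindle bipolar, the region on chromosome 9 (122950660 to 122951372) had 35 and 36 fragments in Chd7-/- and 28 and 28 in wild type. Both Chd7-/- values lay above both wild-type values, with a log2 difference of 0.41 ± 0.19 (SE) and limma adjusted p = 0.597. Kif18a had a difference of 0.25 ± 0.19 (SE; limma adjusted p = 0.786), and after centring its Chd7-/- libraries also lay above its wild-type ones. Its difference was 0.12 without Chd7-/- replicate 1 and 0.01 with libraries centred on their lowest background.

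Kif20a, a midbody motor of cytokinesis, had 30 and 21 fragments in Chd7-/- and 31 and 40 in wild type (chromosome 18, 34624063 to 34625109). Its log2 difference was −0.39 ± 0.20 (SE; limma adjusted p = 0.626). Kif23, the motor of the centralspindlin complex, had 16 and 19 in Chd7-/- and 22 and 25 in wild type (chromosome 9, 61946607 to 61947043), a difference of −0.33 ± 0.20 (SE; limma adjusted p = 0.711). Without Chd7-/- replicate 1 the Kif23 difference was −0.12, and without Chd7-/- replicate 2 it was −0.53. At both genes the Chd7-/- libraries lay below the wild-type libraries. Over all regions 21.4% had both Chd7-/- values above both wild-type values and 17.3% had them below; of the 24 kinesin regions these were 2 and 4, the remaining 2 of the 4 being Kif7 and Kif16b.

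The other mitotic regions called throughout lay closer to no difference. Kif11, the motor that pushes spindle poles apart, had 15 and 16 fragments in Chd7-/- and 12 and 19 in wild type (chromosome 19, 37375996 to 37376650), with a log2 difference of 0.11. Kif20b, a motor of late division, had 22 and 17 in Chd7-/- and 13 and 26 in wild type, with 0.15. By raw pileup the wild-type pair bracketed the Chd7-/- pair at both, and after centring it did so only at Kif20b. Kif2a, a depolymerase of spindle poles and axons, had 34 and 24 in Chd7-/- and 31 and 35 in wild type, with −0.12. The region beside Kif22 was the highest by pileup, 84 and 81 in Chd7-/- and 78 and 85 in wild type, with 0.10. Kif14 had −0.09.

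Of the mitotic genes, 3 had an end region called in 3 libraries, and the missing library was not the same. Kif18b, a depolymerase partner of microtubule tips, was not called in Chd7-/- replicate 1, and had 13 fragments in Chd7-/- replicate 2 and 10 and 15 in wild type. Kif4, a chromokinesin gene, was not called in Chd7-/- replicate 2, and had 15 in Chd7-/- replicate 1 and 9 and 16 in wild type. Kif2c, which corrects faulty attachments at centromeres, had 14 and 16 in Chd7-/- and 11 in wild-type replicate 1, and was not called in wild-type replicate 2. All of these pileups are low, and a missing call is not an absence of signal.

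Transport kinesins that were open included the general cargo motors. Kif5b, the heavy chain of conventional kinesin used in most tissues, had 20 and 11 fragments in Chd7-/- and 18 and 18 in wild type (chromosome 18, 6241237 to 6241684; log2 difference −0.18 ± 0.24, SE). Kif1b, a carrier of mitochondria and vesicles, had 19 and 27 in Chd7-/- and 27 and 32 in wild type (chromosome 4, 149307472 to 149308165; −0.28 ± 0.23, SE). Kif16b, which moves early endosomes, had 39 and 27 in Chd7-/- and 41 and 45 in wild type (chromosome 2, 142901334 to 142901805; −0.31 ± 0.20, SE; limma adjusted p = 0.717). Of these 3, only at Kif16b did the centred values of the genotypes not overlap.

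At several other transport kinesins the genotypes overlapped. Kif1c, a carrier between Golgi and endoplasmic reticulum, had 18 and 23 in Chd7-/- and 17 and 26 in wild type, a log2 difference of 0.04. Kif21b, a motor that also restrains microtubule growth, had 43 and 46 at its end in Chd7-/- and 39 and 57 in wild type, a difference of 0.00. Inside the same gene a further region had 28 and 20 in Chd7-/- and 21 and 34 in wild type, a difference of −0.09. Kif17, a motor of dendrites and cilia, had 25 and 18 in Chd7-/- and 21 and 21 in wild type, a difference of 0.10. The same held at the Kif5a end (20 and 14 in Chd7-/-, 16 and 20 in wild type). Kif3a had the weakest promoter of those called in all 4 libraries, with 8 and 11 in Chd7-/- and 9 and 11 in wild type. Kif13b, an end region with no call in Chd7-/- replicate 1, had 10 in Chd7-/- replicate 2 and 15 and 13 in wild type.

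Some genes had regions inside the gene and none at an end. Kif5c, a heavy chain of neuronal kinesin, had no open end but an inner region with 37 and 25 fragments in Chd7-/- and 31 and 30 in wild type (chromosome 2, 49730104 to 49730567), a log2 difference of 0.08. Inner regions without an open end were also found at Kif13a, Kif26b and Kif28. Kif26b had 17 and 12 in Chd7-/- and 14 and 11 in wild type (0.27 ± 0.23, SE), and the Kif28 region called throughout had 15 and 19 in Chd7-/- and 12 and 17 in wild type (0.31 ± 0.22, SE). Without wild-type replicate 2 the Kif26b difference was 0.0022, and without Chd7-/- replicate 2 the Kif28 difference was 0.061.

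Of the others, Kif7, the ciliary regulator of Hedgehog signalling, had the lowest value of the family. Its promoter (chromosome 7, 79715528 to 79716010) had 17 and 11 fragments in Chd7-/- and 17 and 25 in wild type, a log2 difference of −0.48 ± 0.22 (SE; unadjusted p = 0.0534, limma adjusted p = 0.582). Replicate 1 of each genotype had the same raw pileup, and after centring the Chd7-/- libraries lay below the wild-type ones. The log2 difference was −0.11 at 1 h and −0.84 at 2 h. Kif9, a motor of motile cilia, had 18 and 24 in Chd7-/- and 19 and 33 in wild type, a difference of −0.18.

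Calls that followed genotype were few and lay inside genes. Called in both Chd7-/- libraries and in neither wild-type library were 2 of the 41 kinesin regions, beside 2.71% of all 15328 regions, and the reverse held for 0 of 41, beside 2.25%. Both were in mitotic kinesin genes. In the whole set, the Chd7-/- only pattern held for 334 of 7576 regions away from gene ends and for 81 of 7752 at gene ends. Such regions thus lay mostly away from gene ends over all genes too. The region inside Kif18a (chromosome 2, 109296320 to 109296658) lay 15582 bases from the nearest gene end and had 16 and 13 fragments in Chd7-/-, with fold enrichments of 8.35 and 6.96 and −log10 q of 11.5 and 8.11 in the authors' lists. The region inside Kif14 (chromosome 1, 136532542 to 136532913) lay 23025 bases from the nearest end and was weaker, with 12 and 10 fragments, fold enrichments of 6.31 and 4.62 and −log10 q of 6.84 and 3.69. The wild-type lists held no peak at either. With −log10 q of at least 5 required of every peak, Kif18a stayed in this class, Kif14 left it, an inner Kif28 region entered it (18 and 13 in Chd7-/-, 12 in wild-type replicate 2, whose peak then dropped out), and the Kif13b end became a wild-type-only region.

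The number of kinesin regions called was 38 and 31 in Chd7-/- replicates 1 and 2 and 30 and 33 in wild-type replicates 1 and 2. The means were 34.5 ± 4.95 and 31.5 ± 2.12 (SD, n = 2 each), a difference of 3 (two-sided exact permutation p = 0.667, where 2 of 6 assignments is the smallest share that 2 libraries against 2 can give). The difference was 8 at 1 h and −2 at 2 h, and without Chd7-/- replicate 1, the library with the most peaks in all, it was −0.5. Mitotic kinesins had 16 and 13 called in Chd7-/- and 14 and 13 in wild type, and transport kinesins 16 and 12 in Chd7-/- and 11 and 14 in wild type.

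Summit position was compared at the 14 promoter-window regions called in all 4 libraries. Each summit was measured from the nearest RefSeq start of its gene, library by library. Kif1b, Kif2a and Kif9 have more than a single start. The offset ranged over the 4 libraries by at most 50 bases at 5 of the 14 regions: Kif1c, Kif24, Kif16b, Kif15 and Kif23. At 10 of the 14 every summit was upstream of that nearest start. In bases from the start, with upstream negative, Kif15 summits lay at −66 and −50 in Chd7-/- and −64 and −69 in wild type, upstream of the CHR letters printed above. Kif20b summits lay at −101 and −104 in Chd7-/- and −43 and −48 in wild type, and Kif1b summits at −129 and −109 in Chd7-/- and −61 and −58 in wild type. Kif2a summits lay at −118 and −95 in Chd7-/- and −75 and −56 in wild type. The starts at Kif2a lie further apart than these offsets, so its values may refer to different starts. Whether its genotypes lie apart along the chromosome is therefore not given. By these offsets the summits of the genotypes did not overlap at Kif20b, Kif1b and Kif2a. These are 3 of the 14 (21.4%), against 32.8% of 5182 promoter regions called in all 4 libraries. Summits also lay apart within a genotype, as at Kif11 (−146 and −81 in Chd7-/-, −53 and −124 in wild type). Summit positions were not tested.

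**Figure D4:**
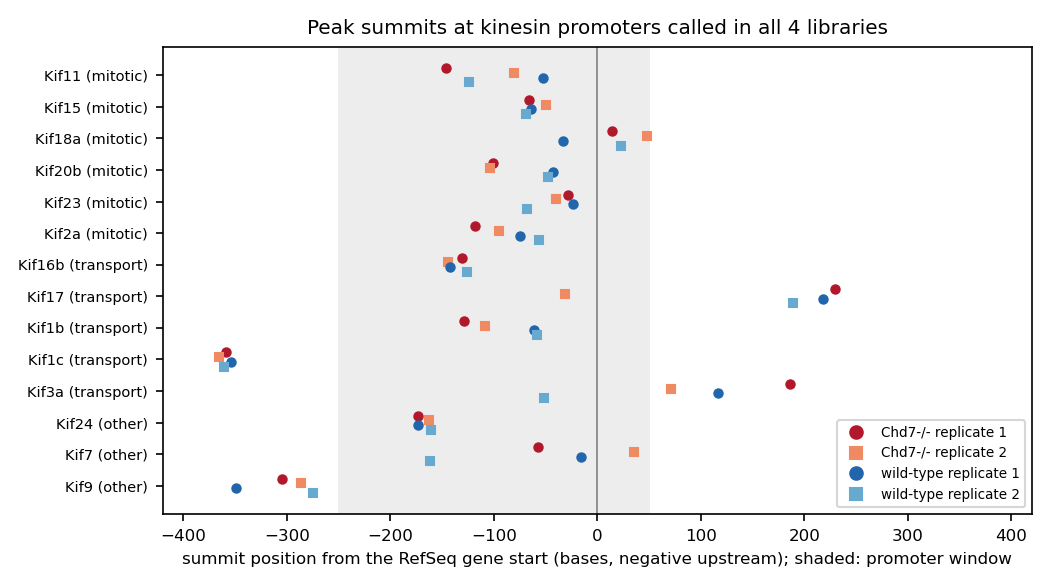
Position of the peak summit from the nearest RefSeq gene start (bases, negative upstream) at the 14 kinesin promoters called in all 4 libraries, by library. The shaded band is the 300-base promoter entry. Summits at Kif1c and Kif24 coincide within 12 bases, while those at Kif17 and Kif3a spread over 261 and 238 bases.

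Partner genes of the motors were counted in the same way. Of 21 spindle and cytokinesis partners, 21 had an accessible end in any library, and of 21 dynein and dynactin genes, 18 did. The counts were 8 of 10 for further kinesin motors and light chains, 12 of 17 for cargo adaptors and 9 of 17 for tubulins, against 39.0% of all genes. For ends called in all 4 libraries the counts were 20 of 21 spindle and 16 of 21 dynein and dynactin genes. They were 8 of 10 for motors and light chains, 7 of 17 for adaptors and 6 of 17 for tubulins, against 32.0% of all genes. In the limma fit 0 of the 66 partner regions passed in either direction. The median differences were 0.16 for 11 kinesin motor and light chain regions, 0.10 for 19 dynein and dynactin regions, 0.02 for 20 spindle regions, −0.17 for 10 adaptor regions and −0.05 for 6 tubulin regions.

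Single partners with the most distant values were a Kifap3 and an Actr1a region. Inside Kifap3, the adaptor of the Kif3 motor, a region on chromosome 1 (163835036 to 163835476) had 29 and 26 fragments in Chd7-/- and 11 and 20 in wild type, a log2 difference of 0.92 ± 0.23 (SE; limma adjusted p = 0.363). A region of Actr1a, the filament subunit of dynactin, lay on chromosome 19 (46396664 to 46397098). It had 34 and 30 in Chd7-/- and 18 and 21 in wild type (0.77 ± 0.18, SE, limma adjusted p = 0.363). Cdk1, the kinase that drives entry into mitosis, had 36 and 34 in Chd7-/- and 24 and 25 in wild type (0.58 ± 0.19, SE; limma adjusted p = 0.40). These 3 had the highest partner differences, and none passed the adjustment. At all 3 the genotypes did not overlap, as at 38.7% of all 8704 regions. A further Kifap3 region and a further Actr1a region, also called in all 4 libraries, had lower differences of 0.36 and 0.09. The lowest partner difference was at Rhot1, with 17 and 12 in Chd7-/- and 19 and 25 in wild type (−0.495 ± 0.197, SE, limma adjusted p = 0.52). Of the 93 partner regions, 1 was called in wild type only, beside 2.25% of all regions, at an end of Klc2, a kinesin light chain gene (10 and 10 fragments in wild type), and 1 in Chd7-/- only, beside 2.71% of all regions, inside Trak2, an adaptor that links mitochondria to kinesin (15 and 12 fragments in Chd7-/-).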

How the data were processed

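ATAC-seq peak lists were deposited for 2 Chd7-/- and 2 wild-type libraries. The tools Bowtie2 2.2.1 and MACS2 2.1.0 come, without role or order, per the submitters' processing notes; peak names carry GRCm38. The authors' lists, called per library, give each peak a score (about 10 times −log10 q), a fold enrichment over local background, −log10 p and −log10 q, and a summit offset. No filter or control is described in the labels.

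Summit pileup was recovered from the deposited fold enrichment (with 1 added to pileup and background) and the Poisson −log10 p, within 0.001, for 99.99% of peaks, 1 peak per library failing; the 2 mitochondrial peaks per library were left out. Overlapping or touching peaks of the 4 lists were merged. Where a library had several peaks in a region, the one with the highest fold enrichment stood for it. Regions called in all 4 libraries were fitted with limma 3.58.1 (R 4.3.3), without replicate block, and Benjamini-Hochberg adjusted at 0.05; counts per library were compared with an exact permutation test. The recovery and the fit were tested on simulated data. Intervals are exact Clopper-Pearson at 95% and cover counting only. Same-numbered libraries did not deviate together (correlation 0.002 over 8704 regions).

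Every kinesin with a region was named; values per library were due for up to 10 of the strongest mitotic and transport members called in all 4 libraries, genotype-exclusive regions, and the 5 highest and 5 lowest differences, and further members' values were added. Members and lists were chosen with earlier results of these data known, and motifs and their window after seeing matches. Alternatives were another q threshold, equal list lengths, other flanks, centrings, pseudocount and filter, the replicate block, and leaving out each library.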

Additional observations from a re-analysis of the deposited data

Results flagged for a closer look

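The 1 h and 2 h library pairs differed in the sign of the Chd7-/- minus wild-type difference for the values below; each time has 1 library per genotype, so the difference between times was not tested. The number of kinesin regions called differed by 8 at 1 h and −2 at 2 h. On the log2 pileup scale, mitotic Kif20b had 0.605 at 1 h and −0.312 at 2 h. Kif2a had 0.0183 at 1 h and −0.253 at 2 h, and the region beside Kif22 had −0.00542 at 1 h and 0.204 at 2 h. Among transport kinesins, Kif1b had −0.596 at 1 h and 0.036 at 2 h, and Kif1c had −0.033 at 1 h and 0.103 at 2 h. The Kif21b end had 0.0265 at 1 h and −0.0304 at 2 h, and its inner region 0.288 at 1 h and −0.464 at 2 h. Kif3a had −0.263 at 1 h and 0.273 at 2 h. Kif5a had 0.194 at 1 h and −0.212 at 2 h, and Kif5b 0.0334 at 1 h and −0.39 at 2 h. Kif24 had −0.22 at 1 h and 0.32 at 2 h. In all, 11 of 24 kinesin regions (45.8%) had opposite signs at the labelled times, against 3916 of 8704 regions (45.0%).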

How the results depend on the processing

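The difference of 3 kinesin regions called per library was 1.5 with −log10 q of at least 5 and with lists of equal length, 3 without flanks and 2.5 with flanks of 5 kb. The replicate block cannot change this difference, as each replicate number holds a library of each genotype. The difference ranged between −0.5 (without Chd7-/- replicate 1) and 6.5 (without Chd7-/- replicate 2) when a library was left out. Chd7-/- only regions numbered 2 to 6 and wild-type only regions 0 to 2 when a library was left out. Leaving out a library loosens the rule for such regions, so neither count could fall below its value with all libraries. At the wild-type side there was 1 region with −log10 q of at least 5. The share of kinesin genes with an open end was 60.5% with a 500-base edge and 63.2% with 2 kb. No kinesin or partner region passed 0.05 in limma under any alternative run; over all regions 70 passed (5 higher in Chd7-/-) when libraries were centred on lowest background, which moved the median of all regions to −0.21, and 2 with the replicate block, against 0 in the fit as reported. Centring on lowest background turned the sign of 8 of 24 kinesin differences: Kif3a −0.229, Kif1c −0.199, Kif20b −0.0874, Kif11 −0.1205, Kif5c −0.156, Kif24 −0.184, Kif17 −0.138 and Kif22 −0.135. With no centring 4 turned: Kif3a −0.076, Kif1c −0.046, Kif5c −0.0029 and Kif24 −0.0312. Pseudocount 5 turned 0 of 24. A mean pileup of at least 10 turned 0 of the 23 regions it kept, Kif3a being left out. The block also turned 0, but by its design it leaves every difference unchanged, so this count carries no information. Leaving out 1 library turned 15 of the 24, whose ranges were −0.163 to 0.159 at the Kif21b end, −0.316 to 0.140 at the inner Kif21b region, −0.222 to 0.0333 at Kif14, −0.167 to 0.149 at Kif5a, −0.288 to 0.298 at Kif3a, −0.218 to 0.289 at Kif1c, −0.275 to 0.0404 at Kif2a, −0.497 to 0.140 at Kif5b, −0.220 to 0.513 at Kif20b, −0.0901 to 0.317 at Kif11, −0.111 to 0.267 at Kif5c, −0.188 to 0.287 at Kif24, −0.0456 to 0.237 at Kif17, −0.608 to 0.0474 at Kif1b and −0.461 to 0.105 at Kif9. The other 9 kept their sign, over 0.306 to 0.520 at Kif15, 0.119 to 0.373 at Kif18a, 0.0404 to 0.159 at Kif22, 0.0022 to 0.538 at Kif26b, 0.0609 to 0.553 at Kif28, −0.529 to −0.124 at Kif23, −0.553 to −0.229 at Kif20a, −0.485 to −0.140 at Kif16b and −0.684 to −0.269 at Kif7. Centred on lowest background, Kif15 had 0.179, Kif18a 0.0119, Kif26b 0.0362, Kif28 0.0728, Kif23 −0.560, Kif20a −0.625, Kif16b −0.546 and Kif7 −0.711. The cause of these changes was not tested.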
